A study of Homo sapiens with 27 samples.

Results

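The cysteine cathepsins were taken as the 10 gene rows of the deposited count files for the papain-like lysosomal proteases CTSB, CTSC, CTSF, CTSH, CTSK, CTSL, CTSO, CTSS, CTSV and CTSZ, out of 55882 gene symbols in each file. The rows were taken by gene symbol and not by a measured value, although earlier results of these data were known. They are candidate proteases of the N-terminal tail of histone H3, and cutting of that tail is what the study followed in U2OS cells, a human osteosarcoma line, as cultures expanded past confluence. Poly(A) RNA-seq was made from 3 stable lines at 3 stages with 3 independent biological replicates each, 27 libraries in all. The control line, titled WT in the labels, carried the empty lentiviral vector pLKO.1 according to its treatment label, and the MMP2sh1 and MMP2sh2 lines carried a pLKO.1 short hairpin RNA against MMP2, the gene of matrix metalloproteinase 2. Stable lines were made by transduction and puromycin selection in the study's methods, and each hairpin is represented by 1 stable line, so a difference between lines cannot be told apart from one between transduced populations. Cells were harvested subconfluent (day −2), confluent (day 0) or overconfluent (day +2), and the control libraries serve both hairpin lines in every comparison with control. The libraries are bulk samples, in which fewer cells expressing a gene and less of its RNA per cell cannot be told apart.

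Cysteine cathepsins are made as inactive precursors, carried to the lysosome largely by mannose 6-phosphate receptors and activated there by removal of the propeptide. They differ in how they cut: cathepsins B, F, K, L, S and V cut within proteins, B also trims dipeptides from C termini, C and H trim N termini, and X, the product of CTSZ, trims C termini. Cystatins and stefins are their natural inhibitors. Besides protein turnover in the lysosome, some members have been found in nuclei, and cathepsin L is known to cut the H3 tail in differentiating stem cells.

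Between 33580129 and 59374327 reads per library were assigned to genes (median 40075178). The targeted gene was checked first. MMP2 stood at 222, 226.3 and 248 CPM (read counts scaled to library size) in subconfluent control cells, at 33.98, 39.5 and 46.8 CPM in MMP2sh1 and at 136, 139.9 and 155 CPM in MMP2sh2. It was lower in both hairpin lines at every stage, at 17.3%, 18.1% and 19.8% of the control level in MMP2sh1 and at 61.7%, 48.1% and 56.8% in MMP2sh2 (days −2, 0 and +2). Of 8 markers of the osteoblast lineage, SPARC (mean 1452 CPM), COL1A1 (1238 CPM), RUNX2 (46.3 CPM) and ALPL (2.701 CPM) were present, whereas SP7, COL1A2, IBSP and BGLAP had median counts under 10 and IBSP was at 0 in all 27 libraries. Markers of leukocytes, the usual home of CTSS, summed over 8 genes to at most 3.56 CPM in any library.

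The 10 cathepsins differed widely in level, and 4 of them held nearly all of the mRNA. To compare genes with each other, CPM were divided by the length of the canonical transcript in kilobases (kb). Over the 27 libraries, CTSB averaged 314.7 CPM per kb and made up 48.6% of the summed per-kb level of the 10 genes. CTSZ followed with 152 CPM per kb (23.5%), CTSC with 95.8 (14.8%) and CTSL with 64.7 (10%). These 4 genes held ranks 1 to 4, in that order, in all 9 groups. CTSF (7.90 CPM per kb), CTSV (5.31) and CTSH (4.83) formed a middle tier. CTSK (0.867 CPM per kb), CTSO (0.569) and CTSS (0.0791) were near the limit of detection, with 20 to 122, 8 to 198 and 0 to 28 reads per library. A count of 0, found for CTSS in 1 MMP2sh2 confluent library, allows a level of up to 0.0795 CPM there, a limit that covers counting error only. CTSK, the collagenase of osteoclasts, and CTSS, the antigen-presenting cell protease, were thus the members with the fewest reads together with CTSO.

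**Figure D1:**
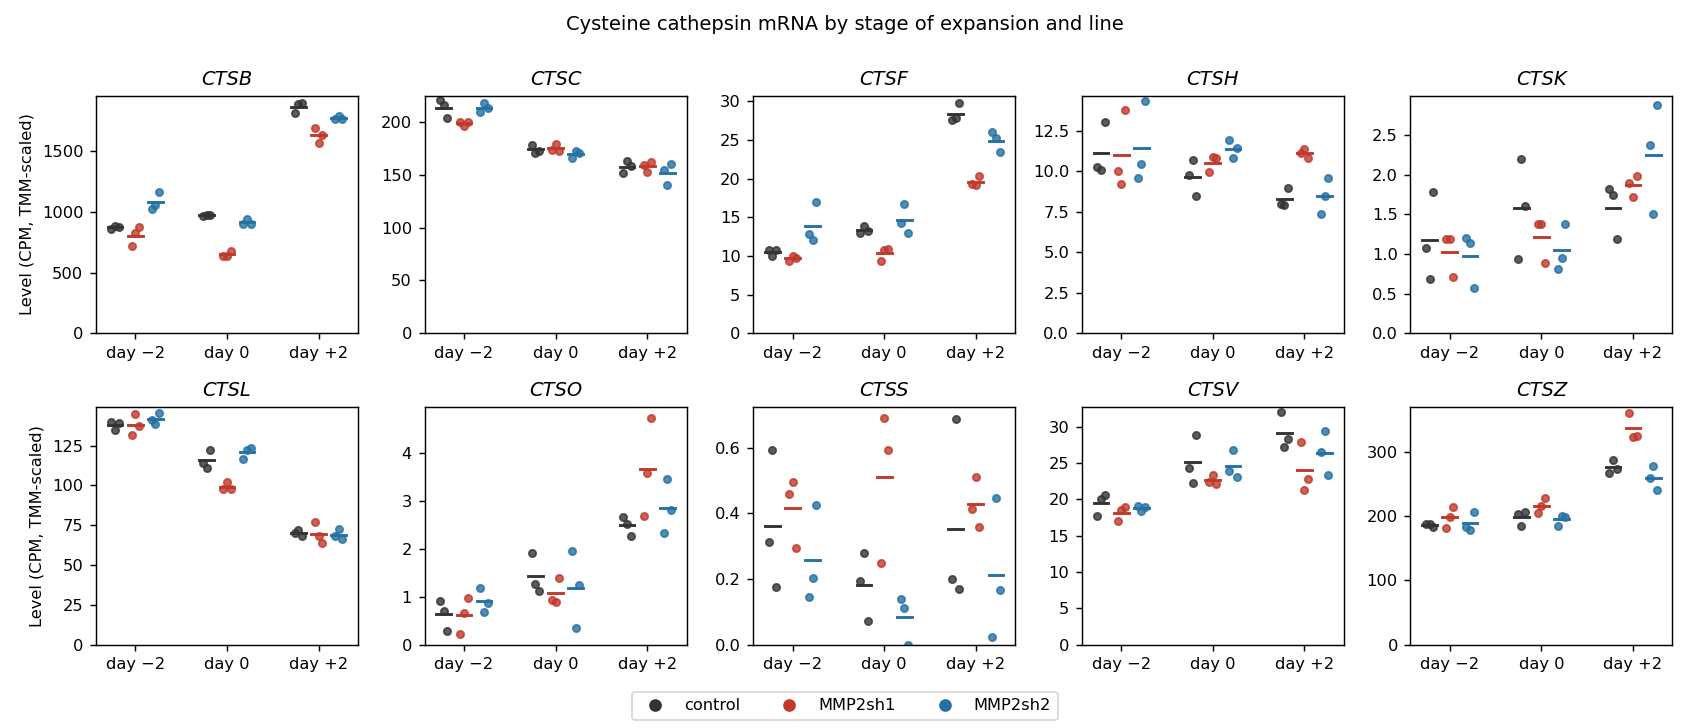
Level of each cathepsin in every library (CPM, scaled by the trimmed mean of M-values; linear axis from 0) against the day of harvest, with black, red and blue points for control, MMP2sh1 and MMP2sh2 and a short bar at the mean of 3 libraries. CTSB, CTSF, CTSO and CTSZ sit highest at day +2 in all 3 lines and CTSC and CTSL sit lowest there; the MMP2sh1 points of CTSB lie below the other lines at day 0 (638.5 to 678 CPM).

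In control cells 8 of the 10 cathepsins changed between day −2 and day +2, and they did not move together. CTSB, CTSF, CTSO, CTSV and CTSZ rose, CTSC, CTSH and CTSL fell, and CTSK and CTSS did not pass the test. A change is called here when the quasi-likelihood test of edgeR gave an adjusted p under 0.05 (Benjamini-Hochberg, over all genes tested). In this comparison 56.8% of all 19099 genes tested were called, 28.1% as higher and 28.6% as lower, so a call in itself sets few genes apart. The median log2 fold change was 0.51 over the 10 members and 0.03 over all genes tested, and the median absolute value was 0.59 and 0.41. By step, 6 of 10 members were called from day −2 to day 0, where 35.5% of all genes were, and 7 of 9 from day 0 to day +2, where 41.4% were.

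CTSB (chromosome 8, 11700033 to 11727042 on GRCh37, minus strand, 10 exons) encodes cathepsin B and rose over the expansion. Positions here and below are those of the GENCODE annotation lifted to GRCh37, in which all 10 members are protein coding. Control libraries held 859, 881 and 879.7 CPM at day −2, 969, 973 and 976 CPM at day 0 and 1815, 1893 and 1896 CPM at day +2. No library of one day overlapped with those of another. The log2 fold change from day −2 to day +2 was 1.10 (SE 0.043, adjusted p = 1.04e-17), a 2.15-fold rise. Most of it came after confluence, since the step to day 0 was 0.16 (adjusted p = 0.00134) and the step from day 0 to day +2 was 0.96 (adjusted p = 1.33e-18). CTSB was one of the genes the study picked from these same libraries for rising over the expansion and for being lower in MMP2sh1 at day +2, so its direction in those comparisons is not independent evidence.

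CTSF (chromosome 11, 66330935 to 66336350, minus strand, 13 exons), a widely expressed endopeptidase gene with a long cystatin-like propeptide, had a larger fold change than CTSB. Its levels in control cells were 10.8, 9.97 and 10.8 CPM at day −2, 12.9, 13.9 and 13.3 CPM at day 0 and 27.5, 27.8 and 29.7 CPM at day +2. The 3 days were again free of overlap, and the log2 fold change over the whole interval was 1.44 (SE 0.088, adjusted p = 1.19e-13).

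CTSO (chromosome 4, 156842732 to 156875064, minus strand, 8 exons), one of the least studied members, had the largest fold and few reads. It went from 0.917, 0.710 and 0.292 CPM to 2.67, 2.53 and 2.27 CPM, a log2 fold change of 1.91 (SE 0.34, adjusted p = 3.08e-05). The separate steps were 1.13 up to day 0 (adjusted p = 0.0298) and 0.81 from day 0 to day +2 (adjusted p = 0.0178), and neither was stable. The first lost its call without subconfluent replicate 2 (1.19, adjusted p = 0.0527), subconfluent replicate 3 (0.81, 0.113) or confluent replicate 1 (0.87, 0.182), and the second without confluent replicate 2 (0.74, 0.0517), confluent replicate 3 (0.67, 0.074) or overconfluent replicate 1 (0.77, 0.0562).

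CTSZ (chromosome 20, 57560741 to 57583293, minus strand, 6 exons) encodes the carboxypeptidase cathepsin X and rose over the expansion. Control libraries read 187, 187 and 183 CPM at day −2, 204, 185 and 207 CPM at day 0 and 267, 288 and 274 CPM at day +2. The first 2 days overlapped (0.10, adjusted p = 0.0933), a step that was called without confluent replicate 2 (0.15, 0.0182). The rise over the whole interval was 0.58 (SE 0.046, adjusted p = 3.17e-11), and the libraries of day +2 lay above all earlier ones. In the annotation 31.7% of the exon bases of CTSZ, all outside its canonical transcript, overlap with exons of NELFCD on the opposite strand. Counting ignored strand and dropped reads over exons of more than 1 gene, so reads in such a stretch would have been counted for neither gene.

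CTSV (chromosome 9, 99791959 to 99918838, minus strand, 8 exons), the closest relative of CTSL and best known from thymus and testis, rose by 0.59 (SE 0.085, adjusted p = 1.17e-06). Its 3 subconfluent control libraries held 17.7, 20.04 and 20.6 CPM and its overconfluent ones 32.02, 27.2 and 28.3 CPM, without overlap. The second step alone, 0.24 (adjusted p = 0.0303), lost its call without confluent replicate 1 (0.21, 0.101), confluent replicate 2 (0.16, 0.185) or overconfluent replicate 1 (0.17, 0.186), and in 3 other fits, among them DESeq2 (0.23, 0.0512).

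CTSL (chromosome 9, 90338966 to 90346384, plus strand, 8 exons) moved the opposite way. It read 139.6, 135 and 139.6 CPM at day −2, 114, 111 and 122 CPM at day 0 and 70.00, 72.2 and 68.1 CPM at day +2, with no overlap between days. The log2 fold change was −0.97 (SE 0.050, adjusted p = 4.08e-15), to 0.510 of the starting level. Of 1624 words of 31 bases in the CTSL transcript 17 also occur in CTSV, and the annotated CTSL pseudogenes had at most 26 reads in any library, so few reads could pass between these genes.

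CTSC (chromosome 11, 87998237 to 88092852, minus strand, 7 exons), whose dipeptidyl peptidase activates the granule proteases of leukocytes, fell from 221, 216 and 204 CPM to 151, 164 and 159 CPM, a log2 fold change of −0.43 (SE 0.049, adjusted p = 2.20e-08). Most of the fall was complete at confluence (−0.29, adjusted p = 9.27e-06). The later step was −0.12 (adjusted p = 0.0441), and it missed the threshold without any 1 of its 6 libraries (−0.14 to −0.09, adjusted p 0.0521 to 0.169), without the filter on low counts (adjusted p = 0.095) and with the replicate number as a block (0.0722). CTSH (chromosome 15, 79213400 to 79241916, minus strand, 12 exons), an aminopeptidase gene, went from 10.3, 10.1 and 13.1 CPM to 7.98, 7.95 and 9.0 CPM, with −0.41 (SE 0.12, adjusted p = 0.00616). Without subconfluent replicate 3, its highest library, this was −0.29 (adjusted p = 0.0568).

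The remaining members are proteases of other tissues. CTSK (chromosome 1, 150767356 to 150782053, minus strand, 8 exons) stood at 1.07, 0.687 and 1.78 CPM and 1.82, 1.74 and 1.19 CPM in control cells at days −2 and +2, overlapping groups with a log2 fold change of 0.44 (SE 0.35, adjusted p = 0.305). Without subconfluent replicate 2 this was 0.17 (adjusted p = 0.727) and without subconfluent replicate 3 it was 0.83 (0.0636). CTSS (chromosome 1, 150702555 to 150738433, minus strand, 8 exons) ranged from 0.0731 to 0.687 CPM over the 9 control libraries, a depth at which a change could be missed.

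The make-up of the cathepsin pool shifted with these changes. The summed per-kb level of the 10 genes in control cells was 571 ± 2.46 CPM per kb at day −2, 574 ± 11.5 at day 0 and 838 ± 21.7 at day +2 (SD, n = 3). CTSB took 40.95% ± 0.680 of it at day −2, 45.4% ± 0.899 at day 0 and 59.7% ± 0.486 at day +2, whereas CTSL shrank from 14.6% ± 0.332 to 5.06% ± 0.163 and CTSC from 19.99% ± 0.755 to 10.1% ± 0.136. The share of CTSZ stayed between 21.5% and 23.6% in all 9 control libraries. In MMP2sh1 the share of CTSB was 38.98%, 35.8% and 53.9% at the 3 stages, and in MMP2sh2 it was 45.8%, 43.95% and 59.7%. The MMP2sh1 share of CTSZ reached 29.4% at day 0 and 27.7% at day +2. These shares are descriptions without a test.

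**Figure D2:**
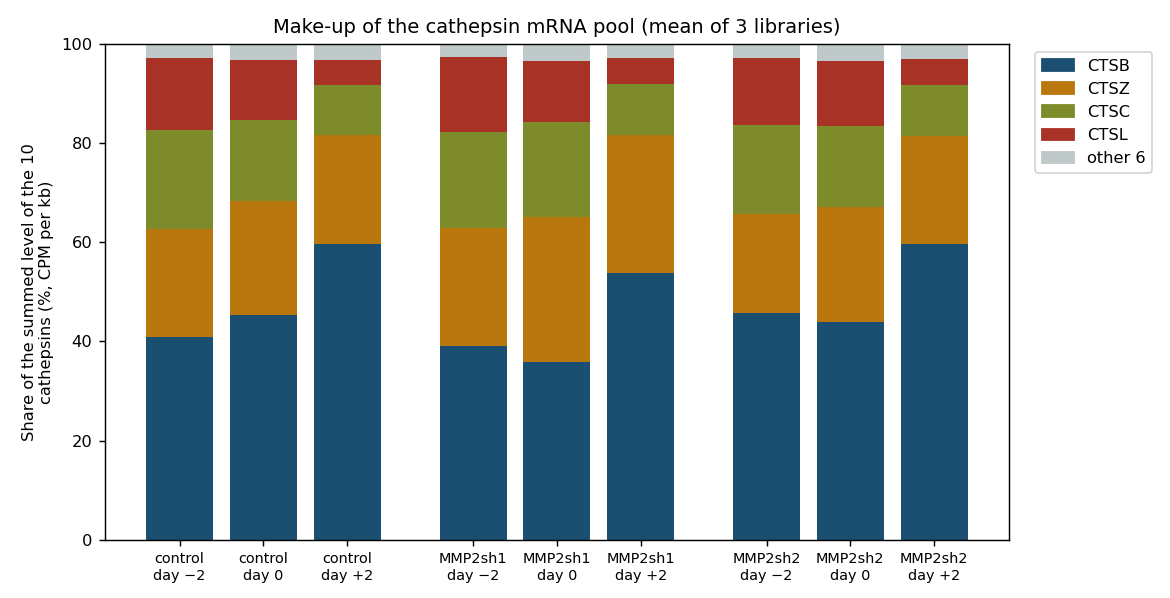
Share of each cathepsin in the summed level of the 10 genes (percent of CPM per kb, mean of 3 libraries, axis from 0 to 100) for the 9 groups of line and day. CTSB grows from 40.95% to 59.7% in control cells while CTSL and CTSC shrink, and its smallest share is the 35.8% of MMP2sh1 at day 0.

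The promoters of 6 members were found in the RefSeq promoter table (GRCh38.p14, a build other than that of the counts): CTSC, CTSF, CTSH, CTSL, CTSV and CTSZ. CTSF is shown because it rose most among the well-counted members and because the E-box CACGTG, the core of the sites read by the lysosomal regulator TFEB, was present in no other member found. CTSL and CTSV are shown because the genes moved in opposite directions over the expansion while their promoters share a stretch. Each line gives the 100 bases just before the start site, 5′ to 3′ on the gene's strand, and capitals mark the E-box CACGTG, the GC box GGGCGG and the CCAAT box on either strand.
CTSF, chr11:66568607-66568706, minus strand: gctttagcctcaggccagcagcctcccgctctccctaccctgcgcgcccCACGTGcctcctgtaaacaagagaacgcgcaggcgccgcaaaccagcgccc
CTSL, chr9:87726019-87726118, plus strand: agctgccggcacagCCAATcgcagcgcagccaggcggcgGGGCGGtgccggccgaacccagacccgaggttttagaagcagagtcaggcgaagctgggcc
CTSV, chr9:97039143-97039242, minus strand: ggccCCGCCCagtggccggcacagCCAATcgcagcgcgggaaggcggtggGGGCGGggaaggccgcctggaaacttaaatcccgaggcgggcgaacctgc
The windows of CTSL and CTSV have a run of 23 bases in common around the CCAAT box, and the longest run shared by any of the other 14 pairs of windows was 10 bases. Over the full table windows, which also reach into the gene, CACGTG occurred in CTSF alone of the 6 (first base at −123 and −51 from the start site) and in 7.26% of all 35116 promoters. The longer TCACGTGA was in none of the 6 and in 0.98% of all. GGGCGG was in 5 of the 6, CTSF being the exception, against 45% of all, and CCAAT was in 4 of the 6 against 34.6% of all. A match describes letters in a window and was not tested as a binding site.

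To see whether the same expansion ran alike in cells with less MMP2 mRNA, each hairpin line was compared with itself. In MMP2sh1 8 of 10 members were called between day −2 and day +2, 6 higher and 2 lower, against a background of 54.9% of all genes (27.3% higher and 27.7% lower). In MMP2sh2 all 9 members tested were called, 6 higher and 3 lower, against 54.7% (27.7% and 27.1%). CTSB, CTSF, CTSO, CTSV and CTSZ rose and CTSC and CTSL fell in each of the 3 lines. CTSB rose by 1.01 in MMP2sh1 (SE 0.065, adjusted p = 3.98e-12) and by 0.72 in MMP2sh2 (SE 0.053, adjusted p = 4.12e-13). CTSF rose by 1.01 and 0.85, CTSO by 2.54 and 1.66, CTSZ by 0.76 and 0.46 and CTSV by 0.40 and 0.50, in the same order of lines. In MMP2sh1 CTSO had 8 to 40 reads per library at day −2 and 104 to 198 at day +2. It passed the filter on low counts there through day +2, so a call as higher was favoured in advance. CTSL changed by −0.99 and −1.03, close to its −0.97 in control cells, and CTSC by −0.33 and −0.49.

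CTSK was called in the hairpin lines and not in the control line. Its MMP2sh1 libraries held 1.19, 1.19 and 0.708 CPM at day −2 and 1.89, 1.71 and 1.99 CPM at day +2, and its MMP2sh2 libraries 1.20, 1.14 and 0.567 CPM and 2.37, 1.51 and 2.88 CPM. Neither line's days overlapped. The log2 fold changes were 0.85 (SE 0.33, adjusted p = 0.0346) and 1.21 (SE 0.34, adjusted p = 0.00317), and the tests of the difference from control cells did not call CTSK in either line. In MMP2sh1 the call was lost without subconfluent replicate 3 (0.64, adjusted p = 0.125), overconfluent replicate 1 (0.84, 0.0731), replicate 2 (0.91, 0.0544) or replicate 3 (0.81, 0.0961), and without the filter on low counts (0.86, 0.0524). A set of 4 osteoclast markers summed to 1.33 to 3.27 CPM per library at days −2 and 0 and to 6.97 to 12.6 CPM at day +2. OSCAR, an immunoglobulin-like osteoclast receptor, made up most of that sum, whereas CALCR and DCSTAMP had median counts of 2 and 0. The part of OSCAR in the CTSK values was not tested.

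CTSH, called lower at day +2 in control cells, was not called in MMP2sh1. It was 10.04, 9.25 and 13.8 CPM at day −2 and 11.1, 11.4 and 10.8 CPM at day +2 in MMP2sh1, overlapping groups, and was lower at day +2 in MMP2sh2 (−0.42, adjusted p = 0.0118). The MMP2sh2 value lost its call without subconfluent replicate 3 (−0.26, adjusted p = 0.138) or overconfluent replicate 1 (−0.34, 0.0805). The difference between the MMP2sh1 and control courses was 0.43 (SE 0.19, adjusted p = 0.193) and was not called, but without MMP2sh1 subconfluent replicate 3 it was 0.60 and called (adjusted p = 0.0422).

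**Figure D3:**
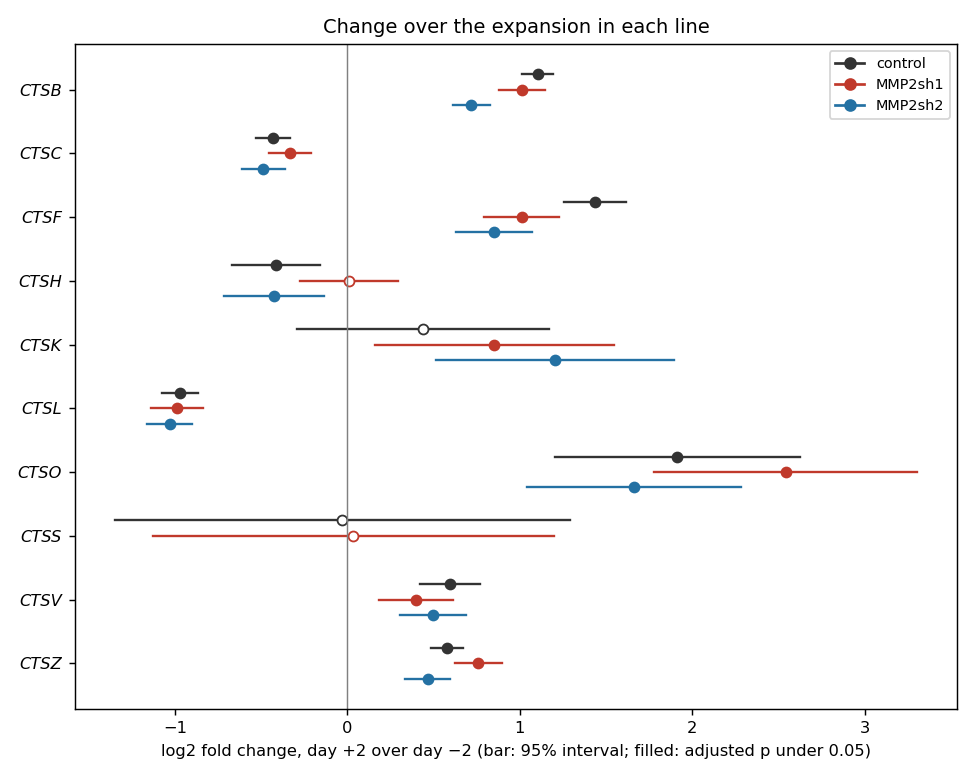
Log2 fold change from day −2 to day +2 for each cathepsin in control (black), MMP2sh1 (red) and MMP2sh2 (blue) cells, with 95% intervals and filled points where the adjusted p was under 0.05. CTSL lies near −1 in all 3 lines, and CTSB and CTSF lie further right in control cells (1.10 and 1.44) than in either hairpin line. For MMP2sh1 the CTSB difference from control cells (−0.08) was not called. The CTSF difference of that line lost its call without any 1 of 11 of the 12 libraries. The wide intervals belong to CTSK, CTSO and CTSS, the members with few reads, and CTSS was not tested in MMP2sh2.

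Set against the control line stage by stage, MMP2sh1 cells had less CTSB, CTSF and CTSL mRNA at day 0 and less CTSB, CTSF and CTSV with more CTSH and CTSZ at day +2. At day −2 none of the 10 members was called by edgeR, with log2 differences from −0.19 to 0.20, against a background of 11.6%. At an unadjusted p under 0.05 0 of the 10 would have passed there, and DESeq2 also called 0. Leaving out any 1 of the 6 libraries gave 0 as well, among them MMP2sh1 replicate 1, which was the least like its replicates. At day 0, 3 of 10 were called (background 16.8%, of which 8.26% higher and 8.58% lower), and at day +2, 5 of 10 (background 14.8%, of which 7.68% higher and 7.11% lower).

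CTSB differed most at day 0. MMP2sh1 cells read 717, 826 and 873 CPM at day −2, 639, 641 and 678 CPM at day 0 and 1689, 1571 and 1630.0 CPM at day +2. The lowest control library of day 0, at 969 CPM, lay far above the highest of MMP2sh1 (678 CPM), and at day +2 the groups were also apart, whereas at day −2 they overlapped. The log2 differences from control were −0.12 at day −2 (95% interval −0.24 to 0.01, adjusted p = 0.23), −0.58 (SE 0.035, adjusted p = 2.21e-14) at day 0 and −0.20 (SE 0.045, adjusted p = 0.00193) at day +2. These calls at days 0 and +2 held when any 1 library was left out (−0.60 to −0.56 and −0.22 to −0.17).

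CTSF was lower at days 0 and +2. MMP2sh1 libraries held 9.36, 9.98 and 9.74 CPM, 9.41, 10.8 and 10.96 CPM and 19.3, 19.2 and 20.3 CPM at the 3 stages. All were below every control library of the same stage at days 0 and +2. The log2 differences were −0.12 (95% interval −0.35 to 0.12, not called), −0.37 (SE 0.10, adjusted p = 0.011) and −0.54 (SE 0.082, adjusted p = 1.87e-05). The day 0 value became −0.30 (adjusted p = 0.0918) without MMP2sh1 replicate 1.

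CTSL was lower only at day 0 in the calls, at 97.5, 102 and 97.98 CPM against 114, 111 and 122 CPM in control cells, a log2 difference of −0.23 (SE 0.048, adjusted p = 0.000786). By day +2 the libraries of both lines overlapped. CTSZ was higher in MMP2sh1 at day +2, at 361, 324 and 326 CPM against 267, 288 and 274 CPM, a log2 difference of 0.28 (SE 0.054, adjusted p = 0.000321). At the earlier stages it was 0.10 (adjusted p = 0.334) and 0.12 (0.0717). The day 0 value passed the threshold without control replicate 3 (0.14, 0.0497) or MMP2sh1 replicate 1 (0.16, 0.0385), without the filter on low counts (0.13, 0.0483) and with the replicate number as a block (0.12, 0.0473).

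Further calls at day +2 had smaller support. CTSH was higher in MMP2sh1, at 11.1, 11.4 and 10.8 CPM against 7.98, 7.95 and 9.0 CPM, groups that did not overlap (0.42 (SE 0.12, adjusted p = 0.0153)). The call was lost without control replicate 1 (0.39, adjusted p = 0.0522), control replicate 2 (0.38, 0.0742) or MMP2sh1 replicate 2 (0.40, 0.0593). CTSV was lower, at 27.9, 21.2 and 22.9 CPM, with 1 library inside the control range (−0.29 (SE 0.093, adjusted p = 0.0352)). It was lost without control replicate 1 (−0.21, adjusted p = 0.201), control replicate 3 (−0.31, 0.064), MMP2sh1 replicate 2 (−0.21, 0.226) or MMP2sh1 replicate 3 (−0.25, 0.125). CTSO was 0.56 and not called (adjusted p = 0.0935), with 0.74 (0.0193) without MMP2sh1 replicate 1 and 0.33 (0.469) without MMP2sh1 replicate 3.

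In MMP2sh2 cells, which kept more MMP2 mRNA than MMP2sh1 cells, CTSB and CTSF were higher than in control cells at day −2, and no member was called at days 0 and +2. At day −2, 2 of 10 members were called (background 11%, of which 4.71% higher and 6.33% lower). CTSB was at 1026, 1057 and 1165 CPM there, above all control libraries, a log2 difference of 0.31 (SE 0.052, adjusted p = 0.000459). CTSF was at 12.8, 12.01 and 16.97 CPM with 0.40 (SE 0.12, adjusted p = 0.0334). This CTSF value lost its call without control replicate 1 (0.42, adjusted p = 0.0831), control replicate 2 (0.36, 0.114), control replicate 3 (0.42, 0.0704) or MMP2sh2 replicate 3 (0.24, 0.252), the last of which held its highest level.

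At day 0 edgeR called 0 of the 9 members tested in MMP2sh2 (background 12.9%), 1 at an unadjusted p under 0.05, and DESeq2 called 1, CTSB. CTSB stood at 903, 945 and 901 CPM, below every control library of that day, with −0.10 (SE 0.035, adjusted p = 0.0523). It passed the threshold by DESeq2 (−0.10, adjusted p = 0.0149), with median-of-ratios scaling (0.049), with at least 10 counts required in every library (0.0499) and without MMP2sh2 replicate 2 (−0.12, 0.0273). At day +2 edgeR and DESeq2 called 0 of the 9 (background 6.32%), and 1 had an unadjusted p under 0.05. CTSB was at 1764, 1794 and 1764 CPM (−0.08, 95% interval −0.16 to 0.01) and CTSF at 26.04, 25.3 and 23.5 CPM (−0.19, 95% interval −0.35 to −0.02), each below the control libraries in all 3 replicates. A call in 1 hairpin line and none in the other does not show that the lines differ, so the lines were also compared with each other.

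**Figure D4:**
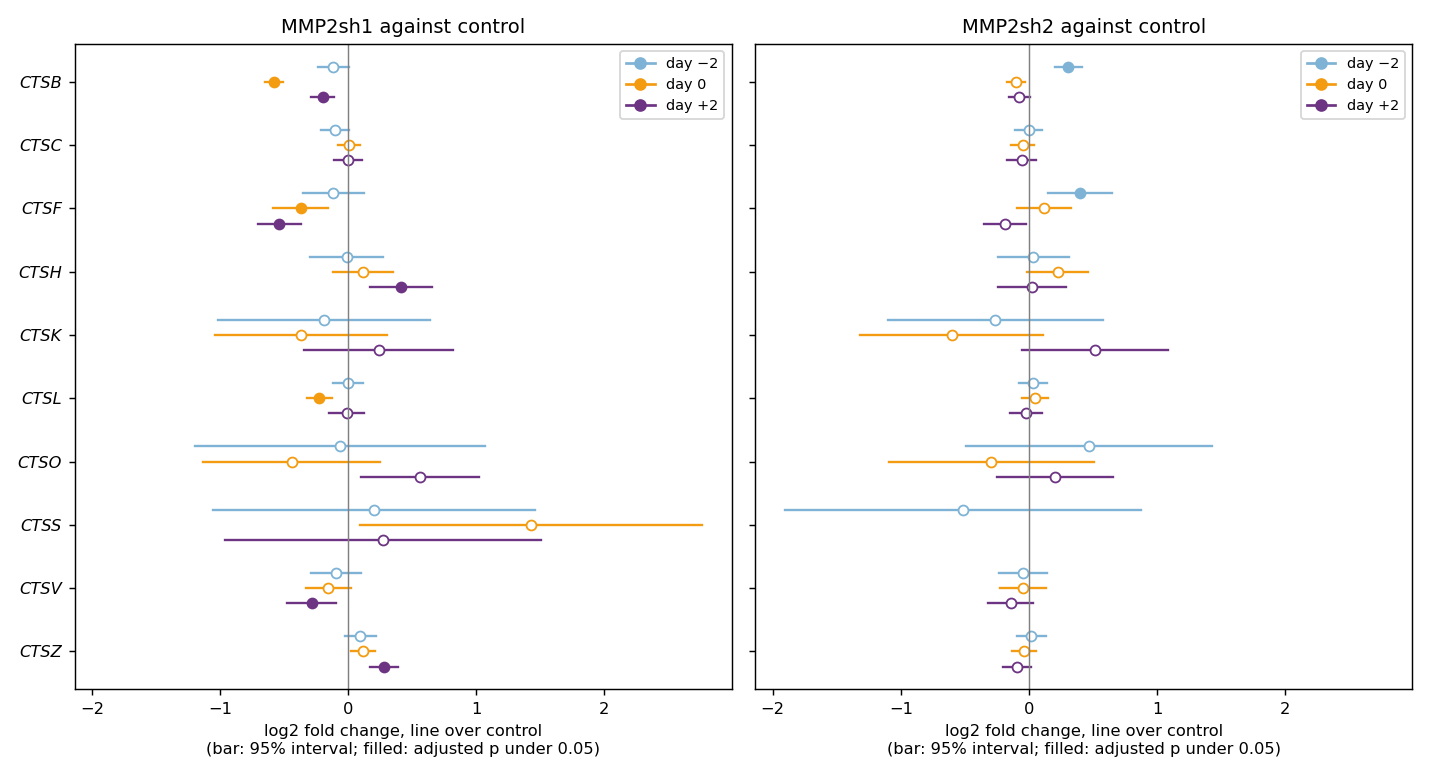
Log2 difference of MMP2sh1 (left) and MMP2sh2 (right) from control cells for each cathepsin at day −2 (light blue), day 0 (orange) and day +2 (purple), with 95% intervals and filled points where the adjusted p was under 0.05. CTSB lies at −0.58 in MMP2sh1 at day 0 and at 0.31 in MMP2sh2 at day −2, and most other intervals include 0.

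Between the hairpin lines, which share no library, CTSB and CTSF were lower in MMP2sh1. The test called 2 of 10 members when subconfluent (background 10.7%), 4 of 9 when confluent (18.5%) and 2 of 10 when overconfluent (7.86%). The CTSB difference was −0.43 (SE 0.068, adjusted p = 6.60e-05) at day −2 and −0.48 (SE 0.033, adjusted p = 3.21e-13) at day 0. At day +2 it was −0.12 (95% interval −0.21 to −0.04, adjusted p = 0.0645), and it passed the threshold by DESeq2 (−0.13, 0.0372), with the replicate number as a block (−0.13, 0.0317) and without MMP2sh1 replicate 1 (−0.15, 0.0201). CTSF was lower at all 3 stages, by 0.52, 0.49 and 0.35 on the log2 scale (adjusted p = 0.00763, 0.00115 and 0.0105). The first of these was lost without MMP2sh2 replicate 3 (−0.36, 0.0916), and the last without MMP2sh1 replicate 2 (−0.34, 0.06) or MMP2sh2 replicate 1 (−0.32, 0.0781).

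The other calls between the hairpin lines concerned CTSL and CTSZ. CTSS had 15 to 28 reads in confluent MMP2sh1 libraries and 0 to 5 in confluent MMP2sh2 ones, groups that did not overlap. It fell below the filter on low counts there and was not tested. CTSL was lower in MMP2sh1 at day 0 (−0.27 (SE 0.046, adjusted p = 3.67e-05)). CTSZ was higher in MMP2sh1 at day 0 (0.16, adjusted p = 0.00584) and day +2 (0.37 (SE 0.059, adjusted p = 0.000139)). The day 0 value lost its call without MMP2sh1 replicate 3 (0.12, 0.0663) or MMP2sh2 replicate 1 (0.12, 0.0928) and when all 27 libraries shared a fit (0.15, 0.113 in edgeR). CTSH at day +2 was 0.39 (adjusted p = 0.0539) and was called by DESeq2 (0.39, 0.037), with the block (0.39, 0.031) and without MMP2sh2 replicate 3 (0.49, 0.0245).

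Whether the expansion itself changed CTSB or CTSF differently in the hairpin lines was tested as an interaction of line and stage. Between day −2 and day +2, MMP2sh1 gave 1 member called of 10 (background 7.4%), CTSF, whose rise was smaller than in control cells by 0.42 on the log2 scale (adjusted p = 0.0417). That call was fragile: leaving out 1 library ended it in 11 of 12 cases (−0.46 to −0.38, adjusted p up to 0.128), the exception being the fit without MMP2sh1 subconfluent replicate 1 (−0.44, 0.0416), and it was also lost without the filter on low counts (0.0804), with the block (0.0557) and in the fit of all 27 libraries (0.0683). CTSB differed there by −0.08 (95% interval −0.24 to 0.08, adjusted p = 0.63). MMP2sh2 gave 2 members called of 10 (background 4.98%). Its rises were smaller for CTSB, by −0.39 (SE 0.065, adjusted p = 0.000179), and for CTSF, by −0.59 (SE 0.14, adjusted p = 0.0114). Without MMP2sh2 subconfluent replicate 3, the CTSF value was −0.42 (adjusted p = 0.0644).

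The interval was then divided at confluence in the hairpin lines too, a set of comparisons chosen after the values of CTSB at confluence were seen. CTSB went down up to confluence in both hairpin lines and up in the control line. From day −2 to day 0 it fell by 0.30 in MMP2sh1 (adjusted p = 0.000249) and by 0.25 in MMP2sh2 (adjusted p = 0.000331), where 32.7% and 30.3% of all genes were called, against the rise of 0.16 in control cells. The groups of days −2 and 0 did not overlap in any of the lines. Against control cells, CTSB in MMP2sh1 stood at −0.12 (not called) at day −2 and at −0.58 at day 0. In MMP2sh2 it stood at 0.31 (called) at day −2 and at −0.10 (not called) at day 0. The difference from the control step was −0.46 (SE 0.071, adjusted p = 0.00015) in MMP2sh1, where 1.35% of all genes were called, and −0.40 (SE 0.061, adjusted p = 7.38e-05) in MMP2sh2, where 3.69% were. CTSB was the only one of the 10 members called in either test, and both tests use the same control libraries. The CTSB values at confluence prompted these tests, so its call in them is not independent evidence. From day 0 to day +2 CTSB rose by 1.33 in MMP2sh1 and by 0.98 in MMP2sh2 (46% and 45.5% of all genes called), against 0.96 in control cells. This later rise was larger than the control rise in MMP2sh1, by 0.38 (SE 0.053, adjusted p = 1.08e-05) (background 4.66%), and differed by 0.02 in MMP2sh2 (95% interval −0.08 to 0.13, background 4.76%). MMP2 itself was called higher at day 0 than at day −2 in MMP2sh1 (0.56) and stood at 0.13 in MMP2sh2 (adjusted p = 0.0745). Its step differed from the control step by 0.07 in MMP2sh1 (adjusted p = 0.878) and by −0.35 in MMP2sh2 (adjusted p = 0.00319), the latter called as lower. The part of MMP2 in the CTSB values was not tested.

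For the other members no difference between the early step of a hairpin line and that of control cells was called. From day −2 to day 0, CTSL fell by 0.47 in MMP2sh1 and by 0.23 in MMP2sh2, against a fall by 0.25 in control cells, and the MMP2sh1 difference of −0.23 was not called by edgeR (adjusted p = 0.139). DESeq2 called it (−0.23, 0.0407), as did edgeR without MMP2sh1 subconfluent replicate 1 (−0.26, 0.046). CTSC fell and CTSV rose up to confluence in all 3 lines. CTSF, which had risen by 0.35 in control cells, moved by 0.10 in MMP2sh1 (adjusted p = 0.561).

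Across the 9 groups the levels of CTSB ran from 1868 CPM in overconfluent control cells through 1774 in MMP2sh2 and 1630 in MMP2sh1 of the same day, to 1083 in subconfluent MMP2sh2, 973 in confluent control, 916 in confluent MMP2sh2, 873 in subconfluent control, 805 in subconfluent MMP2sh1 and 652 in confluent MMP2sh1 cells. Only subconfluent control and subconfluent MMP2sh1 cells, neighbours in this order, overlapped. For CTSF the order started the same way, from 28.3 CPM in overconfluent control cells to 24.9 in MMP2sh2 and 19.6 in MMP2sh1, and 4 of the 5 lower neighbour pairs overlapped.

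CTSB and CTSF followed each other across the 27 libraries, with a Pearson correlation of log2 CPM of 0.942, and within single stages with 0.9, 0.854 and 0.932 over 9 libraries each. Libraries share line, stage and depth scaling, so these are descriptions. CTSL ran against CTSZ (−0.87) and along with CTSC (0.861), but within stages CTSL and CTSC had values of 0.05, −0.328 and −0.261. Of 22106 genes, those whose pattern was most like that of CTSB were PER1, a repressor of the circadian clock (0.982), ARHGEF2, a guanine nucleotide exchange factor (0.975), and TADA3, a subunit of histone acetyltransferase complexes (0.974). For CTSF they were NPC2, a lysosomal cholesterol carrier (0.974), PC, pyruvate carboxylase (0.974), and MXD4, a partner of MAX (0.971). Among those for CTSL were KLF5, a zinc finger transcription factor (0.978), and RIMS4 (0.975).

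Among the inhibitors of the cathepsins more were called higher than lower in control cells, but several could be tested only because of their reads at day +2. Of 12 genes of cystatins, stefins and related inhibitors, 10 were tested between day −2 and day +2, of which 7 rose and 1 fell (background 28.1% higher and 28.6% lower). CST1, CST2, CST5, SERPINB3 and SERPINB4 had at most 11 reads in any control library at day −2. They passed the filter on low counts through day +2, so they could be called only as higher. From day −2 to day 0, 6 of the 12 were tested, of which 2 rose and 1 fell (background 35.5%). CST3, the secreted cystatin C and the first of them by mean CPM over the 27 libraries without length scaling, went from 92.7, 107 and 96.4 CPM to 236, 255 and 245 CPM (1.32 (SE 0.054, adjusted p = 2.78e-17)). CST5 rose from 0.190, 0.142 and 0.205 CPM to 10.05, 9.94 and 9.56 CPM (adjusted p = 2.62e-17) and CST7, the cystatin of immune cells, by 2.10 (adjusted p = 7.77e-08). CSTB, the intracellular stefin B, was the one that fell, from 134, 135 and 138 CPM to 99.7, 107 and 113 CPM (−0.34, adjusted p = 3.03e-06).

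Against the control line the inhibitors called were all higher in MMP2sh1, namely 3 of 5 tested when subconfluent, 2 of 7 when confluent and 5 of 11 when overconfluent (backgrounds 11.6%, 16.8% and 14.8%). CST4 could be tested when overconfluent only through its MMP2sh1 reads, 34 to 55 against 4 to 17 in control cells. CSTB was higher at each stage, by 0.18, 0.33 and 0.28 (adjusted p = 0.0336, 3.07e-06 and 0.00175). At day 0, where CTSB was lowest, CSTB stood at 118, 122 and 124 CPM against 95.4, 91.3 and 101 CPM. In MMP2sh2 1 of 5, 1 of 6 and 1 of 11 were called (backgrounds 11%, 12.9% and 6.32%), the last as lower (CST7, −1.08), and CSTB was higher at day 0 (0.41, adjusted p = 2.01e-07).

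Genes that route and mature cathepsins moved in both directions. Of 7 tested in control cells between day −2 and day +2, 2 rose and 4 fell (background 28.1% higher and 28.6% lower). SORT1, a sorting receptor that bypasses mannose 6-phosphate, rose by 0.58 (adjusted p = 1.37e-09), whereas the mannose 6-phosphate receptor genes M6PR and IGF2R fell by 0.28 and 0.20 (adjusted p = 9.28e-06 and 0.0087). LGMN, the legumain gene whose product cuts cathepsins into their chains, was at −0.01 (adjusted p = 0.874). M6PR was lower in MMP2sh1 than in control cells at every stage, by 0.62, 0.54 and 0.39 on the log2 scale. At day −2 it read 122, 129.9 and 129 CPM against 193, 202 and 189.7 CPM, and no MMP2sh1 library reached the control range. In MMP2sh2 it was not called at any stage, with −0.05, 0.10 and 0.07.

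Cathepsins outside the list and the regulators of lysosomal genes were read beside them. The serine carboxypeptidase gene CTSA and the aspartic protease genes CTSD and CTSE rose in control cells, by 0.20, 0.48 and 1.72 (adjusted p = 0.000763, 1.78e-08 and 0.0271), and CTSG and CTSW, proteases of leukocytes, had too few reads to be tested in that comparison. CTSE had few reads itself, 1 to 18 at day −2 and 13 to 44 at day +2. It passed the filter on low counts through day +2, so it could be called only as higher. TFEB, an activator of lysosomal genes, went from 3.34, 3.32 and 3.33 CPM to 8.12, 9.77 and 9.85 CPM (1.48, adjusted p = 2.46e-09), while its relatives TFE3 and MITF fell by 0.15 and 0.32 (adjusted p = 0.00877 and 0.0352).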

How the data were processed

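Poly(A) RNA from U2OS cells was sequenced by the authors in 27 libraries, 3 lines by 3 stages by 3 replicates. The deposited files hold raw read counts per gene symbol, which the authors made with Trim Galore 0.6.0, STAR 2.7.3a on hg19 and HTSeq 2.0.0 in union mode without strand. A read over exons of more than 1 gene was thus counted for none of them. The annotation version is not given in the sources used here. The HTSeq summary lines (16.8% to 19.1% of each file) were left out. Every file maps to 1 sample and no other column was used.

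Levels are CPM (counts scaled to library size) with trimmed mean of M-values (TMM) factors over all 27 libraries, and per-kb values use the canonical transcript. Differences were tested with edgeR 4.0.16 (R 4.3.3) by the quasi-likelihood test on the libraries of the groups compared, with the tool's filter on low counts (minimum 10, total 15), Benjamini-Hochberg adjustment over all genes tested and a threshold of 0.05. A fold change is on edgeR's log2 scale, SE is its standard error and intervals cover 95%. Interactions used 12 libraries. The script was tested on simulated counts. The paper's own test, DESeq2 (1.42.0 here), was an alternative, on the same and on all libraries, beside a block for the replicate number, the removal of the filter, scaling by median ratios, a minimum of 10 counts in each library, and leaving out libraries 1 at a time. Samples were grouped by their labels. Replicate pairs differed by more than counting noise (chi-square per degree of freedom 4.74 to 24.6), so none was counted as a repeat. The highest values, 19.3 and 24.6, were those of MMP2sh1 subconfluent replicate 1 with its replicates, and every other pair had at most 13.1. That library also had the lowest mitochondrial share of its group (4.24% against 6.11% and 6.55%). It was kept and enters every comparison with MMP2sh1 at day −2.

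All 10 members are named with values, MMP2 as the targeted gene, and from each related list up to 4 genes by mean CPM. Genes alike are the 3 with the highest Pearson correlation of log2 CPM over the 27 libraries, of which 1 is not reported here. The members, lists and comparisons were chosen with earlier results of these data known. Promoters came from RefSeq (GRCh38.p14). The depth, 33580129 to 59374327 reads per library, limits CTSK, CTSO and CTSS. Intervals and the limit of 3 counts for a count of 0 cover counting error only where they rest on counts.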

Additional observations from a re-analysis of the deposited data

Results flagged for a closer look

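These results drew attention because the change of a cathepsin over a stage of the expansion differed between a hairpin line and the control line in a test of that difference itself. From day −2 to day +2 the log2 change of CTSF was smaller than in control cells in MMP2sh1 (difference −0.42, adjusted p = 0.0417) and in MMP2sh2 (−0.59, 0.0114), and that of CTSB was smaller in MMP2sh2 (−0.39, 0.000179) by edgeR (quasi-likelihood test, Benjamini-Hochberg). The MMP2sh1 value of CTSF lost its call without any 1 of 11 of the 12 libraries, with the replicate block (0.0557), without the filter on low counts (0.0804) and in edgeR on all 27 libraries (0.0683). The MMP2sh2 value of CTSF lost it without MMP2sh2 subconfluent replicate 3 (−0.42, 0.0644). Both lines share the control libraries. CTSB in MMP2sh2 was already higher than in control cells at day −2 (0.31, called) and stood at −0.08 at day +2 (not called). The CTSF rise was present in 3 of 3 libraries of every line, with no overlap between the days.

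Up to confluence the CTSB change differed from the control step in MMP2sh1 (−0.46, adjusted p = 0.00015) and in MMP2sh2 (−0.40, 7.38e-05). CTSB in MMP2sh2 came down there from a level above control cells at day −2. From day 0 to day +2 the CTSB rise was larger in MMP2sh1 than in control cells (0.38, adjusted p = 1.08e-05). These 3 comparisons were chosen after the values of CTSB at confluence were seen, and the causes of the differences were not tested.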

How the results depend on the processing

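No value that passed the test changed direction under any of the 7 other settings or without any 1 library, among 91 such values of cathepsins and MMP2. These fits share most of their counts with the main fit, so a change of direction was unlikely in advance. Of 732 values refitted without 1 library, called or not, 60 lost a call and 9 gained one. In MMP2sh2 against control at day 0 the count of members called went from 0 to 1 with DESeq2, with median-of-ratios scaling and with at least 10 counts in every library. In MMP2sh1 against MMP2sh2 at day +2 it went from 2 to 4 with DESeq2 on the same libraries and with the replicate block. The interaction for MMP2sh1 between day −2 and day +2 went from 1 to 0 with no filter, with the replicate block and in edgeR on all 27 libraries. The cause of these shifts was not tested.

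Without 1 library, the count of members called ran from 4 to 6 in control cells from day 0 to day +2 (7 with all libraries), from 3 to 6 in MMP2sh1 against control at day +2, from 1 to 2 and from 0 to 1 in MMP2sh2 against control at days −2 and 0, from 1 to 2 and from 1 to 3 between the hairpin lines at days −2 and +2, and from 0 to 1 and from 1 to 2 in the interactions of MMP2sh1 and MMP2sh2 between day −2 and day +2.

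No pairing by replicate number was seen: over 54 pairs of same-numbered libraries the correlation of deviations from the group means ran from −0.025 to 0.036, and none was over 0.1. All genes weighed alike there, so a weak pairing could be missed. With the number as a block, genes called went from 2009 to 2974 in MMP2sh1 against MMP2sh2 at day −2, the largest rise. The largest drop was from 2854 to 2126 in MMP2sh1 against control at day +2. With the number as a replicate block, 8 members were still called in control cells between day −2 and day +2. No scaling moved the median of all genes by more than 0.038 on the log2 scale. CTSK, CTSO and CTSS are limited by depth, so a change in them could be missed.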

Other observations

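CST3, SORT1, TFEB, CSTB and CTSD were called in both hairpin lines over the expansion, each in the direction it had in control cells. CST3 rose by 1.18 in MMP2sh1 and by 0.93 in MMP2sh2 between day −2 and day +2 (edgeR, adjusted p = 3.79e-13 and 1.54e-13), SORT1 by 0.76 and 0.63, and TFEB by 0.85 and 1.28. CSTB fell by 0.25 and 0.29 on the log2 scale. CTSD, the aspartic cathepsin of the lysosome, rose by 0.60 and 0.42, whereas CTSA was not called in either line. Against control cells at day 0, MMP2sh1 had less CTSA (−0.22, adjusted p = 0.00206) and less CTSD (−0.23, 0.00396) beside less CTSB, CTSF and CTSL. MMP2sh2 at day 0 had neither of them called (−0.03 and 0.14).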
